A study of Homo sapiens with 8 samples.

Results

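HOPX, CRIP2, L1CAM, SNCG and TUBB3 are 5 genes that stood out for a large rise in cells labelled as carrying the estrogen receptor beta isoform ERβ1, against cells labelled as having the receptor knocked out. They were followed here across all groups, as 5 of the 23228 genes counted and 5 of the 13915 genes with enough reads to be tested. The 8 libraries, made from total RNA, carry the label of the established human glioblastoma line U87 MG, kept in medium with fetal bovine serum, and fall into 4 groups of 2. By their labels, control libraries came from U87 cells without a modification. ERb_KO libraries are labelled as from U87 cells in which CRISPR/Cas9 had been used to knock out the receptor (gene ESR2). ERb1 and ERb5 libraries are labelled as from ERb_KO cells into which the ERβ1 or the ERβ5 isoform had been put back. By label, all groups but control thus share the knockout. The labels give no promoter or vector for the isoforms and state neither whether a line is a single clone nor whether a group's libraries are separate cultures. P-values therefore measure only the spread between these libraries, which may be technical.

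Estrogen receptor beta is a nuclear receptor that binds DNA at estrogen response elements or works through other factors on the DNA, and ERβ5 differs from the full-length ERβ1 at its carboxy-terminal end. HOPX is a small homeodomain protein that does not bind DNA itself and acts through partners such as the serum response factor SRF and the deacetylase HDAC2. CRIP2 is a cysteine-rich LIM-domain protein, and LIM domains are zinc-binding folds that hold other proteins. L1CAM is an adhesion molecule of the immunoglobulin superfamily that guides growing axons and is cut from the cell surface by the protease ADAM10. SNCG encodes gamma-synuclein, a small protein of neurons that was also described in breast cancer, and TUBB3 encodes the beta tubulin typical of neurons.

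Each library held 26760897 to 48076414 reads in genes, and the 2 libraries of every group differed by more than sampling noise. ESR2 had 6 to 25 reads in every library, with no more in ERb1 or ERb5 (6 to 18) than in ERb_KO (21 and 23). Mean ESR2 was 0.299 CPM in ERb1 and 0.284 in ERb5, against 0.61 in ERb_KO and 0.577 in control (reads per 1000000 reads in genes). The counts thus do not bear out the put-back label, although whether reads of a put-back isoform fall under ESR2 is not stated. A count over the whole gene does not show an edit, so the knockout label is not checked. The groups are named as labelled. The labelled cell type was not borne out by most of its markers, and markers of luminal epithelium were far higher. Of 8 glial and mesenchymal glioma markers, OLIG2, S100B and POSTN had 0 reads in all libraries, GFAP reached at most 0.136 CPM (reads per 1000000 reads in genes, with library sizes scaled by edgeR's TMM factors) and VIM at most 12.4 CPM. The others were CHI3L1 with at most 5 reads, NES at 1.88 to 4.34 CPM and SOX2, the highest, at 11.4 to 30.2 CPM. All 8 luminal epithelial markers were present, with KRT8 at 2060 to 4450 CPM and GATA3 at 1120 to 1840 CPM. The lowest of them was ESR1, at 106 to 141 CPM. Per library the 8 luminal markers summed to 11500 to 16500 CPM and the 8 glioma markers to 16.4 to 40.8 CPM. By these markers the libraries resembled luminal epithelium more than the labelled glioblastoma line. The origin of the cells was not tested. In bulk RNA, fewer cells of a type and less RNA per cell cannot be told apart.

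The genes lie on different chromosomes, and their promoters were read to show what kind of start each has. GENCODE positions on GRCh37, the build of hg19, put HOPX on chromosome 4 (57514155 to 57548043, minus strand) and CRIP2 on chromosome 14 (105939299 to 105946499, plus strand). L1CAM is on chromosome X (153126969 to 153151627, minus strand), SNCG on chromosome 10 (88718356 to 88723015, plus strand) and TUBB3 on chromosome 16 (89987800 to 90005169, plus strand). The 250 bases before the start of each gene's reference (MANE Select) transcript differed widely in CpG content. There were 42 CpG dinucleotides in CRIP2, 39 in TUBB3 and 29 in L1CAM, against 9 in HOPX and 7 in SNCG, with a median of 18 over 18921 such promoters. CRIP2 thus held more CpG than 97.9% of promoters and SNCG more than 23.2%. The stretches below are written 5′ to 3′ on the gene's strand, and capitals mark the GC box GGGCGG, found on either strand and at times overlapping itself, which 60.1% of all promoters of this length hold. The TUBB3 stretch is 246 bases long, without the last bases, which are annotated as untranslated exon.
CRIP2, chr14:105940908-105941157: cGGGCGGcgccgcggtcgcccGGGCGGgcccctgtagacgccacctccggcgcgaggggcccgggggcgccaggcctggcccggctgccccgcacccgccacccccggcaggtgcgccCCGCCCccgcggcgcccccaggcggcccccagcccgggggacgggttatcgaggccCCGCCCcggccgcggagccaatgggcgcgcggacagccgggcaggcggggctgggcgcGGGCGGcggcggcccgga
L1CAM, chrX:153151628-153151877: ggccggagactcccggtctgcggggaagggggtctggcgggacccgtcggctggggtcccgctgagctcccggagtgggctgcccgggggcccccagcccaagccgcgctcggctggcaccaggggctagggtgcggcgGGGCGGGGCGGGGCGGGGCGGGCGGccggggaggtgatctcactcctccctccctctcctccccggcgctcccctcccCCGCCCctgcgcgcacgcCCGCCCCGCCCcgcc
SNCG, chr10:88718106-88718355: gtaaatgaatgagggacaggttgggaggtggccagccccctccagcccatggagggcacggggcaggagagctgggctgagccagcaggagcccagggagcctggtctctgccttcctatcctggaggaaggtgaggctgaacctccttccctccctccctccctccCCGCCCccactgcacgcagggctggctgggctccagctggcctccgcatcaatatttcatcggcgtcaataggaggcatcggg
TUBB3, chr16:89989500-89989745: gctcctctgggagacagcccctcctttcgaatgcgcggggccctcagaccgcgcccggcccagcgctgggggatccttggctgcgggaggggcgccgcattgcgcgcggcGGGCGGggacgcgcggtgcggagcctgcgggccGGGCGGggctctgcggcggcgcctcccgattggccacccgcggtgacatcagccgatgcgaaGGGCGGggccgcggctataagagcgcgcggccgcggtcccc
The GC box occurred 5 times in CRIP2, 8 times in L1CAM, 3 times in TUBB3, once in SNCG and not in the HOPX window. The full estrogen response element, GGTCA and TGACC with 3 bases between them, was in 0 of the 5 windows and in 6 of the 18921 promoters. Its core GGTCA, on either strand, occurred in 1 of the 5 windows, that of HOPX, and in 30.4% of all promoters. The HOPX window lies within untranslated exons of longer HOPX transcripts, so only 30 bases with that core (in capitals) are shown.
HOPX, chr4:57547683-57547712: agaGGTCAgggacgagaagatagtgacgag
The AP-1 site TGANTCA (4.71% of all promoters) and the TATA box TATAAA (9.11%), searched on both strands, occurred in 0 of the 5. These are matches of letters and not measured binding, and the counts do not tell which start of a gene was used.

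Of the 5 genes, HOPX had the lowest ERb_KO level relative to control and the largest gap between ERb_KO and ERb1. Its level was 4.21 and 4.97 CPM in control, 1.40 and 1.45 CPM in ERb_KO, 8.56 and 8.66 CPM in ERb1, and 3.33 and 2.35 CPM in ERb5. The 4 groups did not overlap, in the order ERb1, control, ERb5 and ERb_KO. The lowest of these levels rests on 44 reads, whose exact Poisson interval of 95% is 1.05 to 1.95 CPM and covers counting error only. The rule chose the genes for the change from ERb_KO to ERb1, which was 2.60 ± 0.21 (SE) on the log2 scale for HOPX and is given as a description. The ERb5 libraries stood 1.01 ± 0.22 above ERb_KO, and 1.59 below ERb1 (log2 difference -1.59 ± 0.19).

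CRIP2 was also lowest in ERb_KO and highest in ERb1, with a smaller gap between the ERb1 and ERb5 libraries. It was at 24.7 and 28.3 CPM in control, 13.9 and 12.6 CPM in ERb_KO, 47.8 and 39.6 CPM in ERb1, and 33.3 and 33.1 CPM in ERb5. No groups overlapped, and here ERb5 stood above control. The log2 difference from ERb_KO was 1.72 ± 0.13 for the ERb1 libraries and 1.33 ± 0.13 for ERb5, and ERb5 minus ERb1 gave -0.39 ± 0.13.

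L1CAM was high in both groups labelled as having an isoform put back. Control libraries had 8.25 and 11.1 CPM, ERb_KO libraries 8.33 and 5.20 CPM, ERb1 libraries 20.8 and 19.3 CPM, and ERb5 libraries 16.1 and 23.1 CPM. Control and ERb_KO overlapped, and so did ERb1 and ERb5, where the highest single library was an ERb5 library. The means of those groups, 20.1 ± 1.09 and 19.6 ± 4.97 CPM (SD, n = 2), differed by less than the spread, so L1CAM was not highest in ERb1 alone. The log2 difference from ERb_KO was 1.55 ± 0.24 for ERb1 and 1.51 ± 0.24 for ERb5. ERb5 minus ERb1 gave -0.04 ± 0.23, with an interval from -0.53 to 0.46. The ERb_KO libraries differed from each other, and ERb1 against ERb_KO was 1.94 without ERb_KO replicate 1 and 1.26 without ERb_KO replicate 2. The change from control to ERb_KO, -0.50 ± 0.24, was -0.89 without ERb_KO replicate 1 and -0.21 without ERb_KO replicate 2.

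SNCG had the highest mean level per length of transcript of the 5 genes (RPKM below), and its ERb1 and control libraries overlapped. It was at 32.1 and 44.9 CPM in control, 19.0 and 15.4 CPM in ERb_KO, 54.3 and 43.9 CPM in ERb1, and 32.7 and 37.1 CPM in ERb5. The ERb_KO libraries were below all others, while control overlapped with both ERb1 and ERb5. The log2 difference from ERb_KO was 1.51 ± 0.18 for ERb1 and 1.02 ± 0.18 for ERb5, and ERb1 minus control gave 0.35 ± 0.17. Without control replicate 2 the last of these was 0.61, and without control replicate 1 it was 0.13.

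TUBB3 was at 6.23 and 7.34 CPM in control, 3.28 and 3.20 CPM in ERb_KO, 10.6 and 7.83 CPM in ERb1, and 5.95 and 6.10 CPM in ERb5. The groups did not overlap, but control and ERb5 came close together, as did the lower ERb1 and the higher control library. The log2 difference from ERb_KO was 1.49 ± 0.18 for ERb1 and 0.89 ± 0.19 for ERb5, ERb1 minus control gave 0.43 ± 0.17, and ERb5 minus ERb1 -0.60 ± 0.18. The change from control to ERb1 was 0.21 without ERb1 replicate 1 and 0.64 without ERb1 replicate 2.

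**Figure D1:**
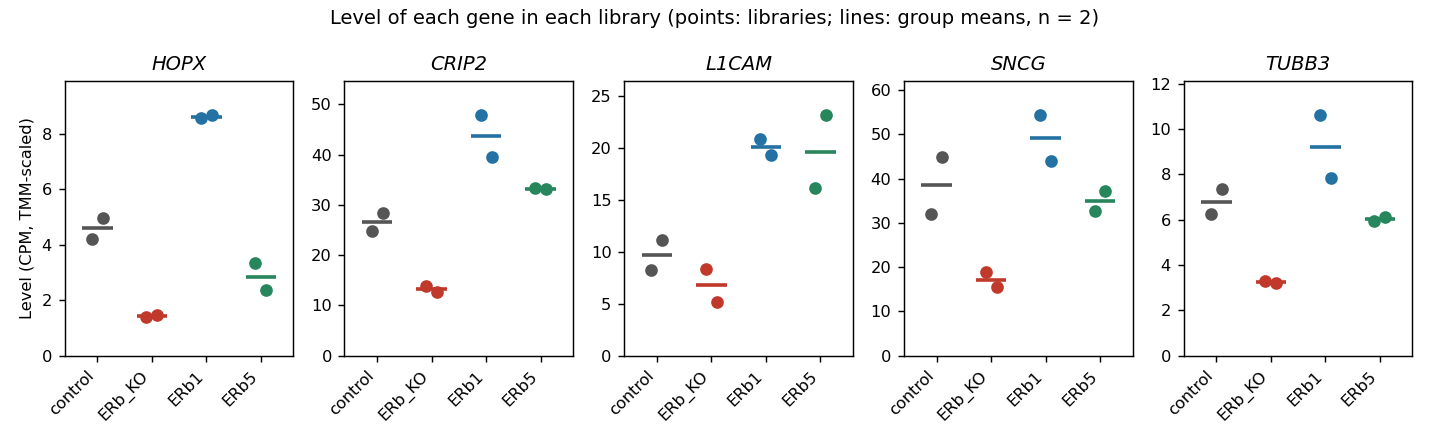
Level of each gene in CPM (vertical axis, linear from 0, scaled per gene) in every library of the 4 groups (horizontal axis). Points are libraries and lines are group means of 2. ERb_KO has the lowest mean for all 5 genes, and the ERb1 and ERb5 points of L1CAM overlap, at 19.3 to 20.8 and 16.1 to 23.1 CPM.

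Per base of transcript, SNCG and CRIP2 were the abundant members. In RPKM (CPM per kilobase of the reference transcript), the ERb1 libraries had 64.9 ± 9.73 (SD, n = 2) for SNCG and 37.1 ± 4.94 for CRIP2. HOPX had 7.67 ± 0.0594, TUBB3 5.39 ± 1.13 and L1CAM 3.91 ± 0.213 RPKM. In ERb_KO the same genes had 22.8 ± 3.41, 11.2 ± 0.787, 1.27 ± 0.0312, 1.90 ± 0.0358 and 1.32 ± 0.43 RPKM. HOPX thus went from the lowest of the 5 in ERb_KO, level with L1CAM within its spread, to the third in ERb1.

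Because the members were picked on ERb1 against ERb_KO, their place in that comparison is only described. Of the 10521 tested genes with at least 5 CPM in ERb1, HOPX had the largest log2 rise, and CRIP2, L1CAM, SNCG and TUBB3 were ranks 3, 6, 7 and 8. This filter looks at the group in which the members are high, and over all 13915 tested genes the ranks were 9, 45, 67, 73 and 76. All 5 passed edgeR's quasi-likelihood test there (adjusted p under 0.05), as did 24.9% of all genes (12.4% as higher), and nothing is read from this. The rule gives no number for a large rise. The genes named next are again from the set with at least 5 CPM in ERb1. Other genes with a rise at least that of TUBB3 included IGFBP5, a carrier of insulin-like growth factors (1.80 ± 0.24), and the membrane protease TMPRSS6 (1.68 ± 0.18). Just below TUBB3 in that set came GABBR2 (1.49), CTXN1 (1.48) and GPER (1.48).

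Relative to the control mean, the ERb_KO mean was lower for each of the 5 genes and the ERb1 mean higher, although single libraries overlapped for L1CAM and SNCG as described. The log2 difference of ERb_KO against control was -1.69 ± 0.21 for HOPX, -1.16 ± 0.18 for SNCG, -1.06 ± 0.19 for TUBB3 and -1.0 ± 0.13 for CRIP2, beside the smaller one of L1CAM above. That of ERb1 against control was 1.05 ± 0.23 for L1CAM, 0.91 ± 0.18 for HOPX and 0.72 ± 0.13 for CRIP2, beside 0.43 for TUBB3 and 0.35 for SNCG. These comparisons share the ERb_KO or ERb1 libraries with the choice of the genes, so they are given without a test. The libraries of the compared groups did not overlap for 4 of the 5 genes in ERb_KO against control, and neither did they for 69.2% of all tested genes. A smaller share of all tested genes passed the test (17.5% changed, 8.52% fell), and the bracketed shares that follow also refer to all tested genes. In ERb1 against control they did not overlap for 4 of 5, all but SNCG, and for 55.1% of all genes (4.06% changed, 1.36% rose). For ERb5 against ERb1 it was 4 of 5, all but L1CAM, and 43.1% of all genes (4.66% changed, 1.18% fell). For ERb5 against ERb_KO it was 5 of 5 and 66% of all genes (28.2% changed, 14.7% rose). With 2 libraries a group, a lack of overlap is thus common among all genes.

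The comparison of ERb5 with control uses none of the libraries on which the genes were chosen, apart from a shared estimate of the spread, and there the 5 genes parted. L1CAM was higher in ERb5, at 19.6 ± 4.97 CPM (SD, n = 2) against 9.69 ± 2.04 CPM, HOPX was lower, at 2.84 ± 0.693 against 4.59 ± 0.537 CPM, and the other 3 did not pass. L1CAM rose by 1.01 ± 0.23 on the log2 scale (2.02-fold, edgeR adjusted p = 0.0155). HOPX fell by 0.68 ± 0.20 (to a level 1.60-fold lower, edgeR adjusted p = 0.0444). CRIP2 had a log2 difference of 0.33 ± 0.13 with an interval from 0.05 to 0.61 before adjustment over all genes (edgeR adjusted p = 0.12). SNCG had -0.14 ± 0.17, from -0.52 to 0.24 (edgeR adjusted p = 0.654), and TUBB3 -0.17 ± 0.18, from -0.56 to 0.22 (edgeR adjusted p = 0.59). So 1 of 5 rose and 1 fell, where 13.2% of all 13915 genes changed (6.85% higher and 6.31% lower). The call of L1CAM was lost without control replicate 1 (0.81, edgeR adjusted p = 0.162) and without ERb5 replicate 2 (0.73, edgeR adjusted p = 0.105). That of HOPX was lost with DESeq2 (adjusted p = 0.0541), when only the 4 libraries compared were fitted (edgeR adjusted p = 0.0867), and without any 1 library other than ERb5 replicate 1 (edgeR adjusted p from 0.0558 to 0.263). Against a minimum change of 1.5-fold neither passed (edgeR adjusted p = 0.307 for L1CAM and 1 for HOPX). Over all 18 alternatives the adjusted p from edgeR or DESeq2 ran from 6.8e-09 to 0.307 for L1CAM and from 0.00922 to 1 for HOPX.

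**Figure D2:**
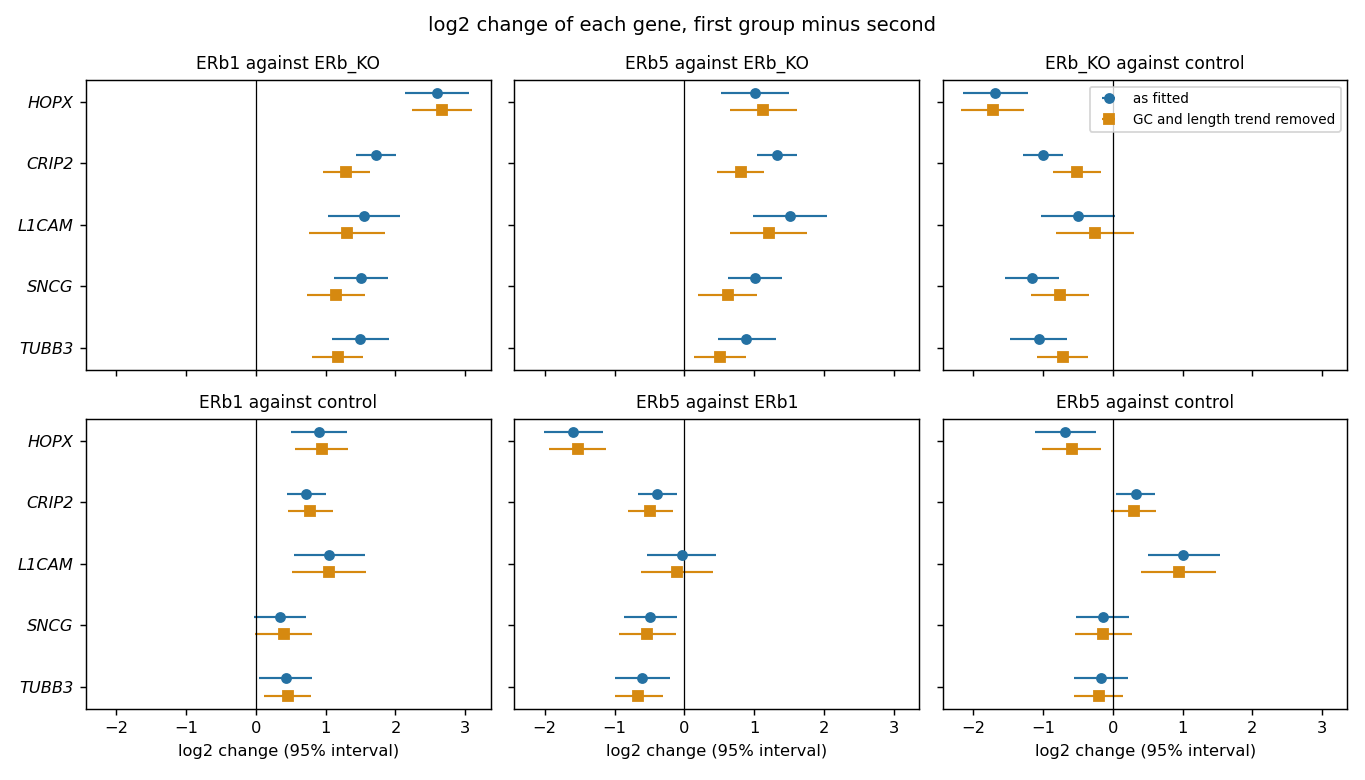
log2 change of each gene (horizontal axis, points with 95% intervals) in the 6 comparisons, first group minus second, as fitted (circles) and with each library's trend with GC content and length removed (squares). In ERb5 against control L1CAM lies above 0 (1.01) and HOPX below (-0.68), while SNCG (-0.14) and TUBB3 (-0.17) have intervals that span 0.

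The trend of levels with transcript GC content differed between groups and, within ERb1, between libraries. Relative to the mean of all libraries, log2 levels across genes correlated with GC content at r = -0.559 and -0.46 in the ERb_KO libraries and between -0.138 and 0.351 in the other 6, which share the same genes. Both ends of that range were ERb1 libraries, with 0.351 in replicate 1 and -0.138 in replicate 2. CRIP2 (66.5% GC), TUBB3 (62.2%), SNCG (60.8%) and L1CAM (60.0%) are GC-rich, and HOPX (44.2%) is not. In ERb1 against ERb_KO the median log2 change ran from -0.30 in the gene decile of lowest GC content to 0.34 in the highest. Genes within 1 percentage point of CRIP2 had a median of 0.34 (275 genes), and those near L1CAM and SNCG 0.26. With the trend removed, the log2 change of ERb1 against ERb_KO was 2.66 ± 0.20 for HOPX, 1.29 ± 0.15 for CRIP2, 1.31 ± 0.24 for L1CAM, 1.15 ± 0.18 for SNCG and 1.17 ± 0.16 for TUBB3. That of ERb_KO against control was then -0.51 ± 0.15 for CRIP2, -0.75 ± 0.18 for SNCG and -0.71 ± 0.16 for TUBB3, against -1.72 ± 0.20 for HOPX. In ERb5 against ERb_KO it was 0.81 ± 0.15 for CRIP2, 0.62 ± 0.18 for SNCG and 0.51 ± 0.17 for TUBB3, each more than 1.5 times smaller on the log2 scale than without the correction. The decile medians of ERb5 against control ran only from -0.05 to 0.08, and L1CAM (0.95 ± 0.23, edgeR adjusted p = 0.0222) and HOPX (-0.59 ± 0.19, edgeR adjusted p = 0.0485) stayed past the threshold. Any part of GC content beyond this correction was not tested. The list and neighbour changes in the next paragraphs come from fits without this correction. The part of the GC trend in them was not tested.

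**Figure D3:**
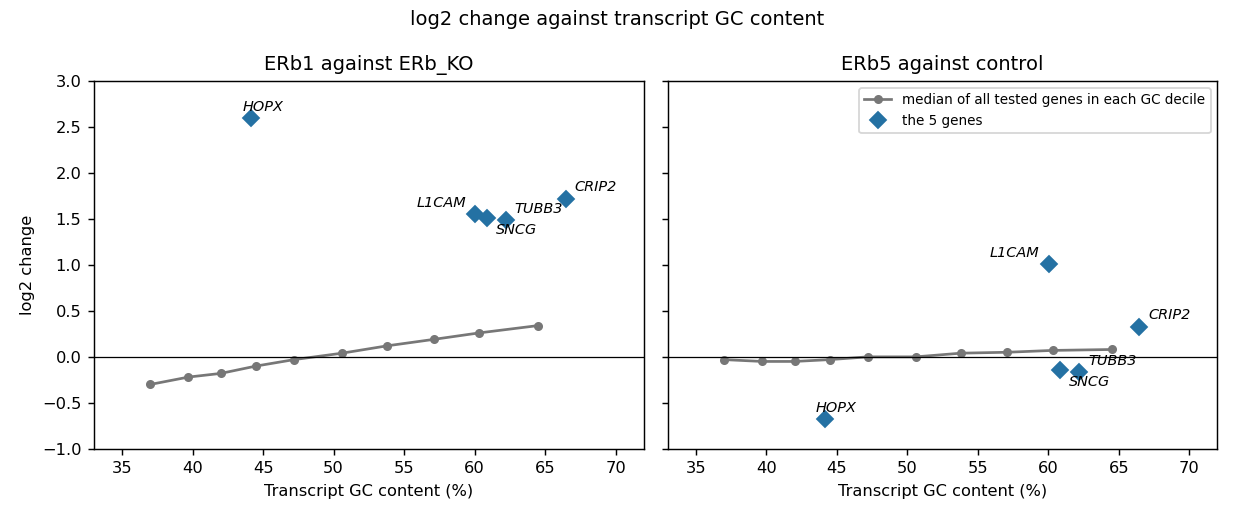
log2 change (vertical axis) against transcript GC content in percent (horizontal axis) for the 5 genes (diamonds) and as the median of all tested genes in each GC decile (line). In ERb1 against ERb_KO the line climbs from -0.30 to 0.34, and the 5 genes lie at 1.49 to 2.60; in ERb5 against control the line stays between -0.05 and 0.08.

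Tubulins other than TUBB3 changed in both directions. Per length of transcript in ERb1, TUBB3 (5.39 RPKM) lay below TUBB (192 ± 13.5) and TUBB6 (24.5 ± 3.63; SD, n = 2) and above TUBB2A (1.77 ± 0.0868) and TUBB8 (0.0691 ± 0.00424), while TUBB1 and TUBB2B had 0 reads. TUBB4A and TUBB4B are not among the gene names counted, so this order leaves them out. In ERb1 against ERb_KO, 2 of 13 tested tubulins rose and 4 fell, with a median log2 change of -0.11, where the median of all genes was 0.00, 12.4% of them rose and 12.5% fell. The rises were the gamma tubulin TUBG2 (1.10 ± 0.19) and the alpha tubulin TUBA1A (0.79 ± 0.13). The falls were the alpha tubulins TUBA1B (-0.95 ± 0.10) and TUBA1C (-0.49 ± 0.10), TUBB (-0.51 ± 0.10) and the epsilon tubulin TUBE1 (-0.75 ± 0.14). The edgeR adjusted p of these 6 ran from 9.79e-05 to 0.00635. Tubulin genes share near-identical coding stretches, and reads without a unique place were left out of the counts, so their levels, that of TUBB3 included, are uncertain.

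Of 26 tested tubulin folding factors, stathmins and microtubule-associated proteins, 3 rose and 3 fell in ERb1 against ERb_KO (median -0.18), near the shares of all genes (12.4% and 12.5%). STMN3, a stathmin of neurons, rose by 0.81 ± 0.12, and so did the tubulin cofactors TBCD (0.51 ± 0.10) and TBCB (0.44 ± 0.13), which are named here after their values were seen. STMN1, which frees tubulin from microtubules, had -1.63 ± 0.13, MAP1B -1.02 ± 0.17 and DPYSL2 -0.64 ± 0.12 (edgeR adjusted p from 1.17e-05 to 0.0304 over the 6). With ERb5 against control 4 rose and 0 fell in edgeR (median -0.02), against 4 lower at an unadjusted p under 0.05 and 1 lower in DESeq2. Of all genes 6.85% rose and 6.31% fell there, and without control replicate 1 or 2 the calls in this list were 2 and 1. The rises held MAP2, a protein of dendrites (1.26 ± 0.16, edgeR adjusted p = 0.000509), MAPRE3 (0.44 ± 0.12) and MAP7D1 (0.39 ± 0.11). The fourth was STMN4, with 0 to 27 reads per library. Of the tubulins, TUBA1A (0.88 ± 0.13) and TUBB2A (0.83 ± 0.21) rose in that comparison, and TUBE1 (-0.81 ± 0.14) and TUBAL3 (-1.42 ± 0.34), the last at no more than 1.12 CPM, fell (edgeR adjusted p from 0.00142 to 0.0245). The count of calls (4) was 2 without control replicate 2 or without ERb5 replicate 2.

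Among LIM-domain relatives of CRIP2, more genes rose than fell in ERb1 against ERb_KO, in the fit without the GC correction. CRIP1, a relative and its next gene on the chromosome, rose by 1.08 ± 0.30 in ERb1 against ERb_KO (edgeR adjusted p = 0.0224) but from a level of only 0.626 ± 0.186 CPM, and CRIP3 had at most 1 read in any library. Of 22 tested LIM-domain proteins, 8 rose and 2 fell (median 0.08), where 12.4% of all genes rose and 12.5% fell. The count of calls (10) was 1 without ERb1 replicate 1 and 6 without either ERb_KO library. LMCD1 (0.95 ± 0.15), PDLIM7 (0.69 ± 0.14), PDLIM2 (0.51 ± 0.16) and CSRP1 (0.49 ± 0.10), a LIM protein of actin filaments, were among the rises, and CSRP2 fell (-0.88 ± 0.20; edgeR adjusted p of these 5 from 0.00113 to 0.0326). Against a minimum change of 1.5-fold 0 of the 22 passed, beside 14 at an unadjusted p under 0.05 without that minimum and 9 in DESeq2. For ERb5 against control 0 of 22 passed edgeR's adjusted test (median 0.02), 6 passed unadjusted (3 higher and 3 lower), and DESeq2 called 2 higher. The edgeR count was 2 without either ERb1 library and without ERb5 replicate 1.

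L1CAM's relatives NRCAM and NFASC did not pass in ERb1 against ERb_KO (0.16 ± 0.14 and 0.44 ± 0.40, edgeR adjusted p = 0.427 and 0.438), and CHL1 had at most 1 read in any library. NRCAM, also an axon adhesion molecule, was the abundant one at 96.7 to 173 CPM. Of 19 tested relatives and partners of L1CAM, 0 rose and 6 fell in edgeR (median -0.07), with 0 higher and 7 lower unadjusted and 0 and 5 in DESeq2, where 12.4% and 12.5% of all genes rose and fell. Without ERb_KO replicate 1, and without ERb1 replicate 1, 2 were called. The proteases ADAM17 (-0.64 ± 0.10) and ADAM10 (-0.33 ± 0.11), the semaphorin co-receptor NRP1 (-0.54 ± 0.18) and the membrane linker RDX (-0.50 ± 0.12) were among them (edgeR adjusted p from 0.00118 to 0.0453). Where L1CAM rose, in ERb5 against control, 1 of the 19 rose, the adaptor ANK2 (0.67 ± 0.18), and 4 fell. Among these were ALCAM (-0.52 ± 0.14) and NFASC (-1.63 ± 0.42), which was under 1 CPM in all libraries (edgeR adjusted p of the 3 from 0.026 to 0.0305). Of all genes 6.85% rose and 6.31% fell there, and the count of calls (5) was 0 without either control library and 2 without ERb5 replicate 2.

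SNCB, the beta-synuclein gene and a relative of SNCG, was near the detection limit, from 0.191 to 0.436 CPM. It had a log2 difference of -0.16 ± 0.39 in ERb1 against ERb_KO and 1.01 ± 0.43 in ERb5 against control (edgeR adjusted p = 0.785 and 0.151).

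**Figure D4:**
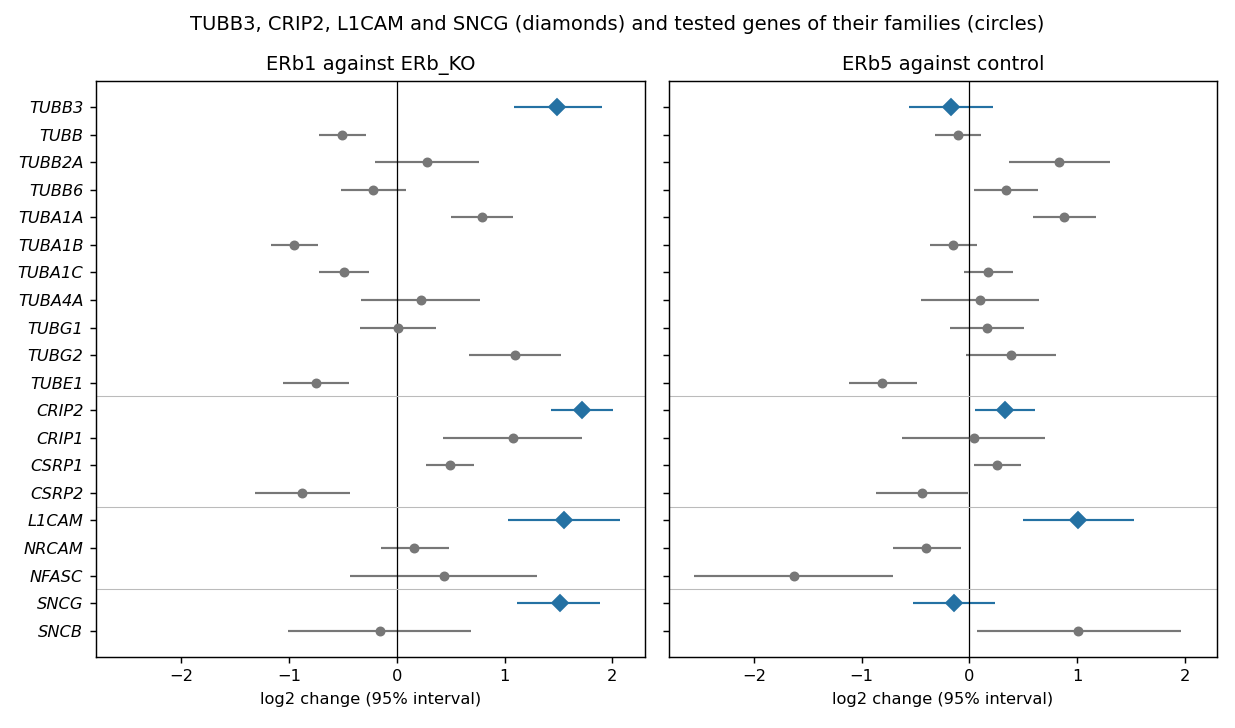
log2 change (horizontal axis, points with 95% intervals) of TUBB3, CRIP2, L1CAM and SNCG (diamonds) and of tested genes of their families (circles) in ERb1 against ERb_KO and in ERb5 against control. In the first comparison the diamonds lie at 1.49 to 1.72, and the circles run from -0.95 (TUBA1B) to 1.10 (TUBG2).

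HOPX has no family list, so its partners and the cytoskeletal targets of SRF were read. SRF itself did not pass in ERb1 against ERb_KO (-0.07 ± 0.11), nor did HDAC2 (-0.18 ± 0.11) or EPC1 (-0.23 ± 0.12), with edgeR adjusted p from 0.173 to 0.669. Of 20 tested genes of this list, 2 rose and 1 fell (median 0.14), no larger shares than over all genes (12.4% and 12.5%): TPM2 (0.74 ± 0.23), TAGLN2 (0.52 ± 0.09) and TPM4 (-0.44 ± 0.09). Where HOPX fell, in ERb5 against control, 4 rose and 3 fell (median 0.02), with FLNA (0.61 ± 0.12) and CYR61 (0.58 ± 0.16) among the rises and ACTA2 (-0.74 ± 0.17), ACTG1 (-0.50 ± 0.12) and TPM4 (-0.36 ± 0.09) as the falls (edgeR adjusted p of these 5 from 0.00517 to 0.0391). Beside 6.85% and 6.31% of all genes, the count of calls (7) was 1 without control replicate 1 or ERb5 replicate 2 and 0 without control replicate 2.

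TUBB3, SNCG and L1CAM are known as genes of neurons, and other neuronal genes were read beside them. Of 18 tested genes of the neuronal list, which includes the neuronal repressor REST and corepressors, 0 rose and 4 fell in ERb1 against ERb_KO by edgeR (median -0.33), with 2 higher and 5 lower unadjusted and 0 and 3 in DESeq2. Of all genes 12.4% rose and 12.5% fell, and the count of calls (4) was 2 without ERb_KO replicate 2 or ERb1 replicate 1. The falls were ENO2 (-0.97 ± 0.27, edgeR adjusted p = 0.031), and SNAP25, UCHL1 and ELAVL2, which stayed under 2.5 CPM in all libraries and were named after their values were seen. For ERb5 against control edgeR called 0 higher and 2 lower, SNAP25 and UCHL1, with 2 and 2 unadjusted and 0 and 1 in DESeq2, beside 6.85% and 6.31% of all genes. Without either control library the count of calls was 1. Of 28 neuronal and neuroendocrine genes in the files, 21 to 23 were under 1 CPM in each library. Their summed level was 301 to 347 CPM in control, 270 to 330 in ERb_KO, 270 to 297 in ERb1 and 344 to 391 in ERb5. REST, which silences L1CAM and many other neuronal genes in cells outside the nervous system, ran from 40.9 to 56.4 CPM and did not pass in ERb1 against ERb_KO (-0.15 ± 0.14, edgeR adjusted p = 0.426).

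Some markers of luminal epithelium were also higher where the members were, and others were not. Of the 8, 4 rose in ERb1 against ERb_KO, KRT8 (1.00 ± 0.11), KRT18 (0.83 ± 0.11), GATA3 (0.67 ± 0.11) and CDH1 (0.42 ± 0.13), and 0 fell (1 lower unadjusted, 0 in DESeq2), beside 12.4% and 12.5% of all genes. Of the glioma markers, 2 of the 3 tested fell, VIM (-1.90 ± 0.30) and SOX2 (-0.95 ± 0.20), and 1 was called without ERb1 replicate 1. The edgeR adjusted p of these 6 called genes ran from 0.000154 to 0.0312. The other 4 luminal markers were not called and had lower means in ERb1 than in ERb_KO. These were EPCAM (569 against 624 CPM), XBP1 (3490 against 3700), TFF1 (257 against 334) and ESR1 (123 against 136). The 8 luminal markers summed to 13000 to 13700 CPM in control, 11500 to 11800 in ERb_KO, 15700 to 16500 in ERb1 and 14800 to 15800 in ERb5. The 8 glioma markers summed to 31.6 to 31.8, 35.2 to 40.8, 16.4 to 21 and 23.5 to 28.7 CPM in the same order, with 3 or 4 of them at 0 reads in each library. The part of either cell type in the levels of the 5 genes was not tested.

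Some neighbours on the chromosome were also higher in ERb1 than in ERb_KO, where 12.4% of all genes rose, in the fit without the GC correction. The annotated span of TUBB3 begins 419 bases after MC1R, the melanocortin receptor gene, which ends at 89987381. The reference transcript of TUBB3 starts further on, just past 89989749. TUBB3 shares 1584 exon bases with an annotated gene that overlaps part of TUBB3 and of MC1R. MC1R went from 7.65 ± 0.825 CPM in ERb_KO to 13.3 ± 1.47 CPM in ERb1 (SD, n = 2), a log2 rise of 0.80 ± 0.16 (edgeR adjusted p = 0.00541). SNCG lies inside the span of MMRN2, which is on the opposite strand and shares 0 exon bases with it; this gene is named because it overlaps. MMRN2 rose from 0.419 ± 0.219 to 1.66 ± 0.514 CPM (1.88 ± 0.42, edgeR adjusted p = 0.00812), and C10orf116, which begins 5174 bases beyond SNCG, rose from 17.9 ± 3.94 to 32.9 ± 3.6 CPM (0.88 ± 0.15, edgeR adjusted p = 0.00235). In ERb_KO, MMRN2 rested on 25 and 8 reads. Against control, the ERb5 libraries gave no call for MC1R, MMRN2 or C10orf116 (edgeR adjusted p between 0.47 and 0.668). The other neighbours of the 5 genes, CRIP1 apart, missed the threshold in ERb1 against ERb_KO: MTA1, DEF8, BMPR1A, PDZD4, ARL9 and SPINK2 had edgeR adjusted p between 0.0943 and 0.672, and AVPR2 had at most 1 read. The strand setting of the counting is not given in the sources used here, so reads of L1CAM and of L1CAM-AS1, an antisense gene that shares 358 exon bases with it, cannot be told apart. L1CAM also shares 439 exon bases with an annotated protein-coding gene on its own strand, where a strand setting would not separate the reads.

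Over the 8 libraries, SNCG and TUBB3 had the most similar profiles among the members (r = 0.98 of log2 CPM), and HOPX and L1CAM the least similar (r = 0.61). All points share the libraries that chose the genes, so these values are descriptive, as are those for other genes. Among 686 genes with at least 5 CPM in a group and a range of at least 1 on the log2 scale, those most like TUBB3 were KRT19, a keratin of simple epithelia (r = 0.98), GATSL3 and BCAM, a laminin receptor (both 0.97). Those most like SNCG were IGDCC3 and KREMEN2 (both 0.98) and KRT19 (0.96), and those most like CRIP2 were IGDCC3 and TENC1 (both 0.98) and KRT19 (0.97). KRT19 went from 1100 ± 57.6 CPM in control to 626 ± 52 in ERb_KO, 1380 ± 145 in ERb1 and 1120 ± 39.6 in ERb5. HOPX was matched best by PXMP4 (0.98), LOC645431 (0.97) and DSCR8 (0.96). PXMP4, a peroxisome membrane protein, had 56.6 ± 2.9, 38.5 ± 4.09, 80.1 ± 4.15 and 50.0 ± 6.4 CPM in the same order of groups. L1CAM was matched by KIFC3, a microtubule motor, and RIBC1 (both 0.99), and by TP53INP2 (0.97), which like L1CAM had close levels in ERb1 (17.0 ± 2.85 CPM) and ERb5 (14.8 ± 0.374 CPM). Transcript GC content was 59.3 to 68.7% for the genes most like TUBB3, SNCG and CRIP2, and 52.6 to 64.1% for those most like L1CAM. For PXMP4 and DSCR8, most like HOPX, it was 49.9 and 40.4%. The part of the GC trend in these correlations was not tested.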

How the data were processed

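The authors deposited raw counts of reads per gene. The submitters' processing notes name bcl2fastq, TopHat2 2.0.8b, HTSeq and the build hg19. For HTSeq the version, strand setting and annotation were not given in the sources used here. The 5 entries that name no gene (reads outside genes 7.01 to 7.79%, ambiguous 0.54 to 0.561%, not unique 34.7 to 39.9%) stayed out of library sizes and tests. Genes were filtered (filterByExpr, minimum count 10, minimum total 15), scaled by TMM and tested with edgeR 4.0.16 in R 4.3.3 (robust quasi-likelihood F test, all 8 libraries in 1 fit), with Benjamini-Hochberg adjustment over 13915 genes and a threshold of 0.05. The SE is the log2 change over the root of F. CPM use TMM-scaled totals. The scripts were tested on simulated data. Members and lists were chosen with earlier results of these data known. Named genes are the members, the 3 most like each, up to 4 called genes of at least 5 CPM per list and comparison, family members, neighbours, other rises as large, and markers; a few items are not reported here. Positions, promoters and GC content (95.2% of tested genes) come from GENCODE on GRCh37. Alternatives were other size factors and filters, a 1.5-fold minimum change, only the groups compared, DESeq2 1.42.0, a replicate block, removal of GC and length trends, and leaving out each library.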

Additional observations from a re-analysis of the deposited data

How the results depend on the processing

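Of the 90 alternative values of the 5 genes in ERb5 against control, 75 kept their direction and side of the threshold. The exceptions were 11 of HOPX, 3 of L1CAM and 1 of SNCG, whose difference was 0.12 without control replicate 2 and -0.36 without control replicate 1. L1CAM in ERb5 against ERb1 was 0.02 without ERb1 replicate 1 and 0.20 without ERb5 replicate 1, with a lowest value of -0.32 without ERb5 replicate 2. Each of the other 4 comparisons of the 5 genes kept its direction under every alternative run.

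The number of genes changed depended on the settings. ERb_KO against control had 2434, ERb1 against ERb_KO 3466, ERb5 against ERb_KO 3922, ERb5 against ERb1 649, ERb1 against control 565 and ERb5 against control 1831. Against a 1.5-fold change it was 123, 455, 160, 189, 86 and 341 in that order, since that test asks for more. With the GC and length trend removed there were 1614 in ERb_KO against control, 2469 in ERb5 against ERb_KO, 1163 in ERb5 against ERb1, 1383 in ERb1 against control and 3013 in ERb5 against control. Without a filter on low counts, 1375 changed in ERb5 against ERb1 and 1384 in ERb1 against control. In a fit of the compared groups only, 4351 changed in ERb_KO against control, 421 in ERb5 against ERb1 and 1107 in ERb1 against control; the cause was not tested. Leaving out 1 library gave 237 to 3226, 1198 to 4203, 1674 to 4378, 125 to 1389, 128 to 975 and 587 to 2143 in the first order, with fewer samples.

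The libraries share a replicate number but no stated pairing, and same-numbered libraries deviated together at r = -0.12 to 0.139. With the replicate block, 2532, 3519, 3929, 652, 581 and 1850 genes changed in the first order, and HOPX in ERb5 against control had an edgeR adjusted p of 0.0543. The block with the GC and length trend removed gave 2584 in ERb5 against ERb_KO, 1277 in ERb5 against ERb1 (64.3% of them higher, against 74.7%), 1510 in ERb1 against control (44.6% higher, against 33.5%) and 3184 in ERb5 against control. With the control numbers crossed, an alternative chosen after seeing the data, 2737 changed in ERb_KO against control and 728 in ERb1 against control.

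Counts of called genes in the lists moved by more than 1.5 times in 60 of 324 alternative values. The LIM list in ERb1 against ERb_KO ran from 0 to 13 called (10 as fitted), the L1CAM partners from 1 to 7 (6), the tubulins from 1 to 7 (6), the microtubule list from 1 to 7 (6), the SRF list from 0 to 5 (3) and the neuronal list from 2 to 5 (4). In ERb5 against control the lists in that order ran from 0 to 4 (0), 0 to 7 (5), 0 to 5 (4), 1 to 6 (4), 0 to 9 (7) and 1 to 3 (2).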
